A study of Gallus gallus with 8 samples.

Results

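Freshly dissected otic ectoderm of the chick was compared with freshly dissected lateral ectoderm, with 2 arrays for each tissue, and these are 4 of the 8 arrays of the study. Both tissues were taken from untreated embryos labelled stage 10, no strain is given, and every array received RNA pooled from many pieces of ectoderm that had been separated with an enzyme and by hand. Otic ectoderm was cut out where PAX2 is known to be expressed, and lateral ectoderm was cut out beside it, further from the midline. This neighboring tissue is a mixture, since future epidermal cells lie there together with a number of epibranchial precursors. The other 4 arrays, of trigeminal ectoderm labelled stage 8 and kept in culture for 18 h, either in 50 ng/ml FGF2 or in medium lacking it, were used only to estimate the spread between arrays. The members are all 38439 probe sets of the Affymetrix GeneChip Chicken Genome array outside the 96 controls, out of 38535, and they name 13039 genes. The labels do not say whether the replicate pools came from separate sets of embryos, so the spread between pools may be partly technical. P-values rest on the replicate spread of all 8 arrays, the cultured ones included, which limma also pools across probe sets.

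The otic placode is a thickened patch of head ectoderm beside the hindbrain that folds inward and forms the inner ear. It is induced by fibroblast growth factors (FGFs) from the neighboring mesoderm and neural tube, and Wnt and Notch signals then favor otic over epidermal fate close to the neural tube. The ectoderm further from the midline becomes epidermis, a layered epithelium held together by keratin filaments and desmosomes, or forms epibranchial placodes that give rise to sensory neurons.

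An intensity is the brightness of a probe set on the linear scale of the deposited table. Fold changes are given as the log2 of otic over lateral ectoderm, with the standard error (SE) of limma's fit over all 8 arrays and p-values adjusted over all probe sets (Benjamini-Hochberg). A probe set was counted as higher or lower in otic ectoderm at a fold above 2 and an unadjusted p under 0.05. At these limits 1941 probe sets (5.05%) were higher and 1048 (2.73%) were lower. With limma 0 probe sets reached an adjusted p under 0.05, the smallest being 0.20, while 3168 had an unadjusted p under 0.05. A prior variance that follows the intensity brought 37 higher and 8 lower probe sets under an adjusted p of 0.05. Every call below is thus a call at the unadjusted limit.

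Median intensities of the arrays were 29.3 and 31.7 for otic and 25.6 and 27.9 for lateral ectoderm, and the median log2 fold change over all probe sets was 0.19, against 0.012 after quantile normalization. The balance of directions depended on the scaling, with 64.9% of called probe sets higher in otic ectoderm without scaling, 48.8% after quantile normalization and 48.0% after median centring. The log2 values of the otic pools correlated with each other at r = 0.914 and those of the lateral pools at r = 0.915, across probe sets, and pools of different tissues at 0.900 to 0.914. Otic replicate 2 and lateral replicate 2 were thus as alike over the whole array as 2 pools of one tissue.

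The spread between pools depended strongly on the intensity. In the dimmest 20% of probe sets the replicates differed by a median of 1.04 in otic and 0.98 in lateral ectoderm on the log2 scale after median centring, and in the brightest 20% by 0.40 and 0.29. The share of probe sets called higher was 6.13% in the dimmest class and 3.10% in the brightest, and that called lower was 4.14% and 1.46%. The median size of a called log2 fold change was 2.33 in the dimmest class and 1.42 in the brightest. Dim probe sets thus gave more calls, larger fold changes and less repeatable values.

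**Figure D1:**
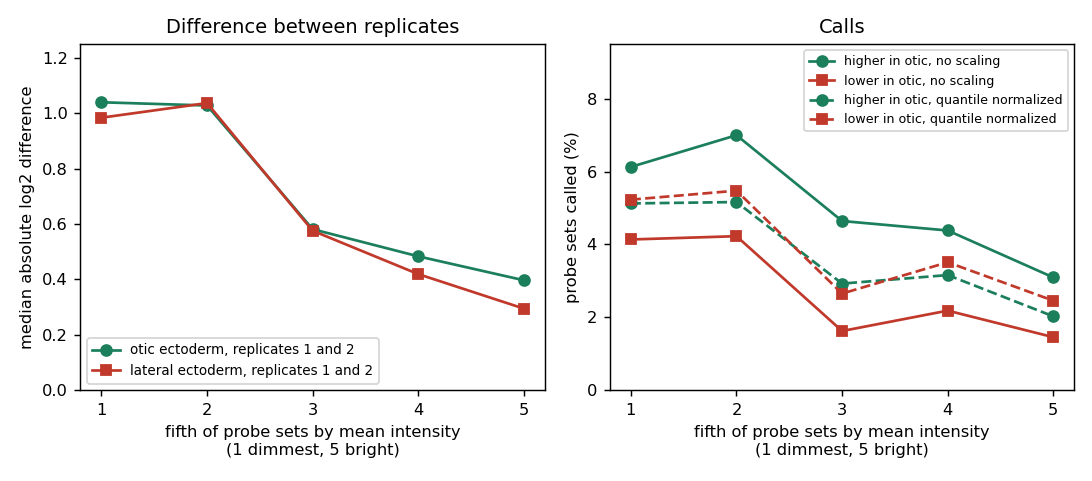
Probe sets in 5 classes of equal size by mean intensity over the 4 arrays (x axes, 1 dimmest and 5 brightest) against the median absolute log2 difference between replicates (left) and the percentage of probe sets called (right, solid without scaling and dashed after quantile normalization). Replicate differences fell to 0.40 in otic and 0.29 in lateral ectoderm in the brightest class, and after quantile normalization more probe sets were called lower than higher in 4 of the 5 classes, the exception being class 3 (225 higher and 204 lower).

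The genes described first come from the 7688 bright probe sets, the 20% of highest mean, whose geometric mean over the 4 arrays was 218 or more. Of these, 238 (3.1%) were higher in otic ectoderm, in 183 genes, and 112 (1.46%) were lower, in 81 genes. Quantile normalization turned this balance round, to 156 higher and 189 lower, and median centring gave 144 and 182. The counts also moved with single pools. Without lateral replicate 1 there were 117 higher and 101 lower, without lateral replicate 2 470 and 66, without otic replicate 1 352 and 49, and without otic replicate 2 169 and 276.

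A stricter class is called firm here. A firm call had no overlap between the arrays of the 2 tissues and also passed both limits after quantile normalization, after median centring, with the intensity-dependent prior, in a fit of the 4 arrays alone and without each of the 4 pools in turn. Among bright probe sets, 83 (1.08%) were firmly higher, in 64 named genes (median log2 fold change 1.86), and 30 (0.39%) were firmly lower, in 22 named genes (median −2.09). All 113 still differed more than 2-fold when 32 intensity units were added before the log2, whereas over all intensities 209 of 579 firmly higher and 95 of 292 firmly lower probe sets did. Added units shrink dim fold changes most, so this contrast follows largely from the brightness limit and is not further evidence for the bright calls. When the bright probe sets were fitted alone, a choice made after the data had been seen, 51 passed an adjusted p under 0.05 as higher and 19 as lower.

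**Figure D2:**
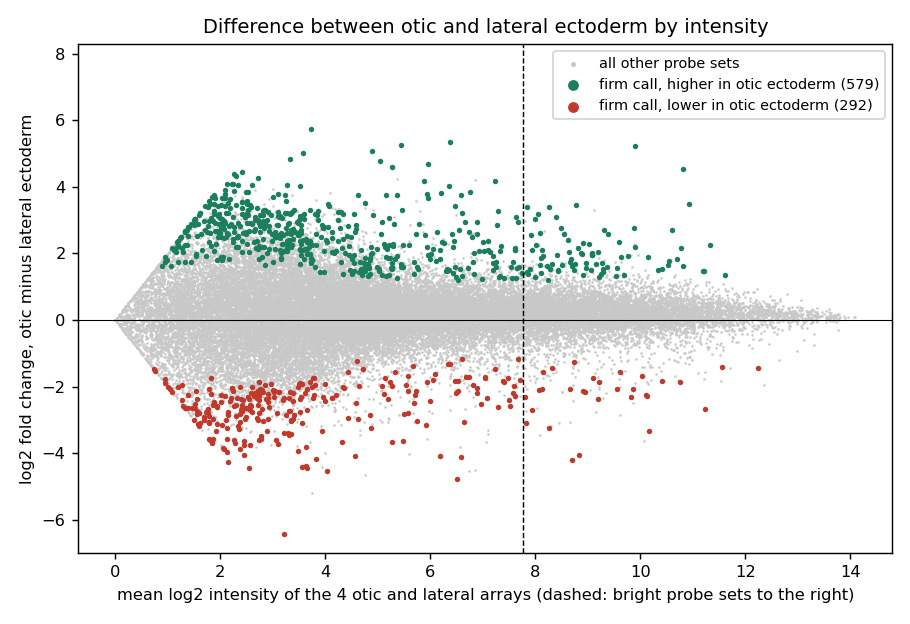
Mean log2 intensity over the 4 otic and lateral arrays (x axis) against the log2 fold change of otic minus lateral ectoderm (y axis), 1 point per probe set, with the 579 firmly higher and 292 firmly lower probe sets in color. Only the 83 and 30 firm calls right of the dashed line are bright, and the largest fold changes lie left of it.

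Transcription factors were among the largest firm increases. GBX2, a homeobox gene of the posterior brain and otic territory, stood at 8359.8 and 8846 in otic pools, against 304 and 455 in lateral pools (log2 fold change 4.53, SE 0.39, adjusted p = 0.20, n = 2 arrays per group). It was bright in both otic pools, and its replicates differed little beside the 2 tissues. OTX2, a homeobox gene of the forebrain, midbrain and anterior head ectoderm, stood at 1575 and 1336 in otic pools, against 65.3 and 271 in lateral pools (3.45, SE 0.78, adjusted p = 0.31). The study listed OTX2 as not known from the otic region, yet scored its in situ signal in the placode of most vehicle-treated cultured embryos. A second OTX2 probe set was also higher on the arrays (2.86), so that a gene known from anterior head and one known from the posterior brain were both higher in otic pools. As RNA of whole tissue was measured, fewer cells of a type and less RNA per cell cannot be told apart in this or any later difference.

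GATA3, a zinc finger factor required for inner ear development, had 538 and 1041 in otic pools, against 57.6 and 87.5 in lateral pools (3.40, SE 0.50, adjusted p = 0.20). SALL1, a zinc finger gene mutated in a human syndrome with hearing loss, had 3686 and 4195 in otic pools, against 357 and 1037 in lateral pools (2.69, SE 0.54, adjusted p = 0.26). ZBTB16, a zinc finger repressor, had 573 and 918 in otic pools, against 73.7 and 106 in lateral pools (3.03, SE 0.44, adjusted p = 0.20). Lateral replicate 2 was the higher lateral pool for all 3 genes, while the gap between the tissues is required of every firm call.

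FOXC2, a forkhead factor best known from mesoderm and vessels, had 5899 and 7165 in otic pools, against 332 and 1022 in lateral pools (3.48, SE 0.57, adjusted p = 0.21), and all 3 of its probe sets were called higher. ISL1, a LIM homeobox factor of sensory and motor neurons and of heart progenitors, had 636 and 1023 in otic pools, against 46.9 and 165 in lateral pools (3.19, SE 0.68, adjusted p = 0.29). SOX3, an HMG-box factor of neural and placodal progenitors, had 1217 and 2497 in otic pools, against 284 and 420.1 in lateral pools (2.33, SE 0.55, adjusted p = 0.34). MYCN, a growth-promoting factor, had 4456 and 7015 in otic pools, against 1117 and 1238 in lateral pools in its brighter probe set (2.25, SE 0.42), and the other gave 2.56. FOXC2 and ISL1 are also members of the mesoderm and heart list described further on.

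Genes of signaling and matrix were also among the largest firm increases. IL17RD, also called Sef, an inhibitor of FGF receptor signaling in the membrane, had 856 and 1166 in otic pools, against 67.6 and 133 in lateral pools (3.40, SE 0.58, adjusted p = 0.21), and all 3 of its probe sets were higher. HS3ST3B1, a sulfotransferase that modifies heparan sulfate, had the largest bright increase, with 5172 and 6619 in otic pools, against 32.6 and 748 in lateral pools (5.23, SE 1.32, adjusted p = 0.38). Its size depended on the lateral pool, with 2.97 without lateral replicate 1 and 7.49 without lateral replicate 2. VCAN, the matrix proteoglycan versican, had 1243 and 2085 in otic pools, against 179 and 347 in lateral pools (2.69, SE 0.48), and its other probe set agreed in direction (2.60).

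CCND1, the cyclin that carries cells from G1 into S phase, had 832 and 1059 in otic pools, against 127 and 148 in lateral pools (2.78, SE 0.45, adjusted p = 0.21). Its other bright probe set was also firmly higher (2.16, SE 0.40). NEDD9, a scaffold protein of focal adhesions, had 715 and 1183 in otic pools, against 107 and 220.4 in lateral pools (2.58, SE 0.54), and all 4 of its probe sets were higher. NLRP1L had 922 and 498 in otic pools, against 96.7 and 124 in lateral pools (2.63, SE 0.41). In contrast to most genes of this group, NLRP1L was higher in otic replicate 1 than in otic replicate 2.

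Further bright genes were higher with a smaller fold and a narrow spread. SPRY2, a feedback inhibitor of FGF signaling, had 883 and 1506 in otic pools, against 222 and 248 in lateral pools (2.30, SE 0.39). STC2, a secreted glycoprotein, had 1220.0 and 949 in otic pools, against 174 and 266 in lateral pools (2.32, SE 0.39), and IRS2, an adaptor of insulin receptors, had 4194 and 3300.2 against 1083 and 632 (2.17, SE 0.40). For IRS2 this was 1 of 4 probe sets, and the other 3, with intensities of 36.2 or less in every pool, were not called. MN1, a transcriptional co-activator, had 838 and 778 in otic pools, against 174 and 218 in lateral pools (2.05, SE 0.34).

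NAP1L2, a histone chaperone (1.99, SE 0.33), ZNF462, a zinc finger protein (1.47, SE 0.32), and LOC395159 (2.00, SE 0.35) had close replicates, ZNF462 for example standing at 3893 and 3937 in otic pools, against 1383 and 1441 in lateral pools. SLC4A7, a bicarbonate transporter, was higher by 1.67 (SE 0.34) in 1 of 5 probe sets, while another bright probe set gave 0.57 (SE 0.42) and was not called. The receptor tyrosine kinase gene KIT (2.24), the phospholipase gene PLCH1 (2.18) and the Notch modifier LFNG (1.77) were also firmly higher, and were named after their values had been seen.

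**Figure D3:**
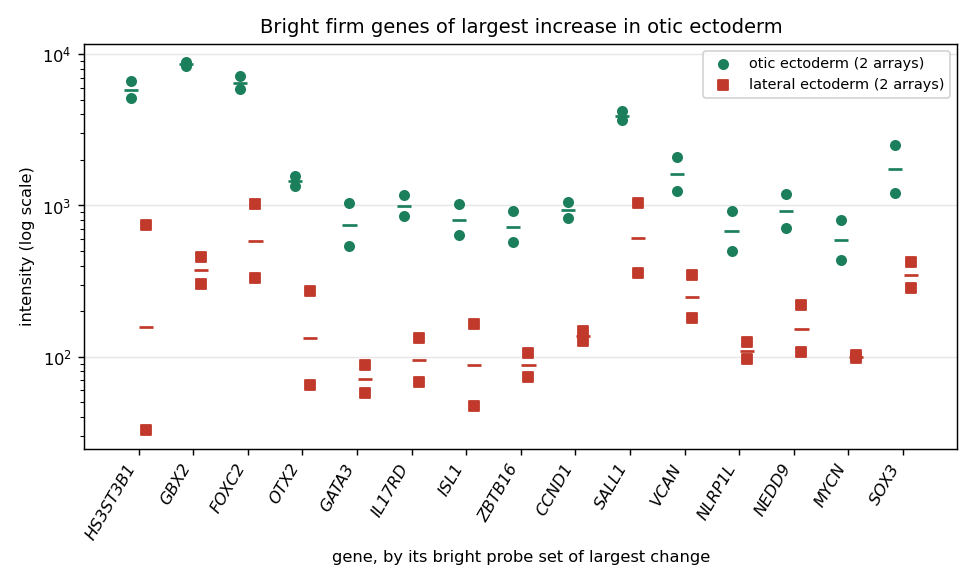
Intensities (log scale) of the 15 genes with the largest firm increase among bright probe sets, with 2 points per tissue and the geometric mean as a bar, otic ectoderm left of lateral ectoderm. Otic and lateral points do not overlap, which the rule for a firm call requires. HS3ST3B1 shows the widest gap between its lateral pools (32.6 and 748).

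On the lateral side, PRPS2 and a pair of annexins led the firm differences. PRPS2, which makes the precursor of nucleotides, had 62.8 and 149 in otic pools, against 1482 and 2189.6 in lateral pools (−4.22, SE 0.79, adjusted p = 0.24), and all 3 of its probe sets were lower in otic ectoderm. ANXA2, an annexin that binds membranes and actin, had 181 and 727 in otic pools, against 2955 and 4527 in lateral pools (−3.33, SE 0.69, adjusted p = 0.28). A brighter ANXA2 probe set was also firmly lower, by less (−2.69, SE 0.59), and a dim one was not called (−0.81). ANXA8L1, another annexin, had 99.6 and 98.9 in otic pools, against 938.5 and 940.7 in lateral pools (−3.24, SE 0.62, adjusted p = 0.25). These replicates were nearly identical, while a dim ANXA8L1 probe set with 29.1 and 0.8 in otic pools, against 106 and 176 in lateral pools, gave −4.66 with an SE of 1.51. The bright probe set is therefore the steadier measure of this gene.

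EDNRB, the endothelin receptor of neural crest and pigment cell precursors, had 72.7 and 82.2 in otic pools, against 738 and 602 in lateral pools (−3.11, SE 0.56, adjusted p = 0.22). Its second probe set, with 96.2 and 95.1 in otic pools against 662 and 599 in lateral pools, gave −2.72 (SE 0.37, adjusted p = 0.20). Both are bright and both are firm. VLDLR, a receptor of lipoproteins and reelin, had 226 and 294 in otic pools, against 1915 and 923 in lateral pools (−2.37, SE 0.44, adjusted p = 0.24). DIO2, the deiodinase that activates thyroid hormone, had 82.4 and 121 in otic pools, against 574 and 432 in lateral pools (−2.32, SE 0.37, adjusted p = 0.21).

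SEMA6D, a transmembrane semaphorin, had 170.3 and 320.1 in otic pools, against 905 and 1223 in lateral pools (−2.17, SE 0.43, adjusted p = 0.25), and 3 of its 4 probe sets were lower. A second bright one had 181.9 and 209.6 in otic pools, against 644.9 and 1069 in lateral pools (−2.09, SE 0.38). ELAPOR2 had 114 and 148 in otic pools, against 486 and 632 in lateral pools (−2.09, SE 0.35, adjusted p = 0.21). It was lower in 3 of 5 probe sets, and the others, both dim, gave 0.84 and 0.71 without a call. VLDLR, DIO2, ELAPOR2 and the second probe sets of SEMA6D and EDNRB also passed an adjusted p under 0.05 with the intensity-dependent prior, as did 1 probe set without a symbol, with 439 and 575 in otic pools against 2345 and 2444 in lateral pools (−2.25, SE 0.34).

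Epithelial structural genes were part of this group. DSP encodes desmoplakin, which ties keratin filaments to desmosomes, and all 3 of its probe sets were bright, firm and of like size (−2.06, −2.08 and −2.14). The brightest of them had 238 and 569 in otic pools, against 1249 and 1936 in lateral pools (SE 0.53, adjusted p = 0.38). The keratin gene KRT24 had 589 and 879 in otic pools, against 1967 and 3407 in lateral pools (−1.85, SE 0.48, adjusted p = 0.39), with −1.30 in a second probe set. Its brightest probe set, with 4501 and 7684 in otic pools against 9824 and 12868 in lateral pools, was not called (−0.94, SE 0.50). LSP1P1, a further firmly lower gene, had 704 and 1162 in otic pools, against 2995 and 3654 in lateral pools (−1.87, SE 0.44). Of its 5 probe sets 3 were lower. A brighter LSP1P1 probe set, with 837 and 2095 in otic pools against 2635 and 3066 in lateral pools, was not called (−1.10, SE 0.54).

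CPM, a carboxypeptidase of the cell surface, had 234 and 697 in otic pools, against 1846 and 2230.3 in lateral pools (−2.33, SE 0.57). FAM84B had 311 and 822 in otic pools, against 2360 and 2563 in lateral pools (−2.28, SE 0.51), in the bright one of its 4 probe sets. OIT3 had 311 and 644 in otic pools, against 1936 and 1875 in lateral pools (−2.09, SE 0.48). In all 3 genes otic replicate 2 lay more than 2-fold above otic replicate 1, though under both lateral pools, which a firm call requires. ALPK3, an atypical kinase known from heart muscle, had 218 and 440 in otic pools, against 1153 and 1097 in lateral pools (−1.86, SE 0.47), where a dim probe set of the same gene gave −4.54 (SE 0.93).

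The 7 other firmly lower bright genes, named after their values had been seen, were TDH (−1.75), the urothelial membrane gene UPK1B (−1.68), the kinase gene PIM3 (−1.55), the LIM-domain gene CSRP2 (−1.44), COL4A1, the type IV collagen chain of basement membranes (−1.43), CTSC, a lysosomal protease (−1.41), and the magnesium transporter gene SLC41A3 (−1.27). CSRP2, for example, had 3139 and 2708 in otic pools, against 6972 and 8973 in lateral pools. PIM3 had 120.3 and 229.7 in otic pools, against 508 and 466 in lateral pools.

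**Figure D4:**
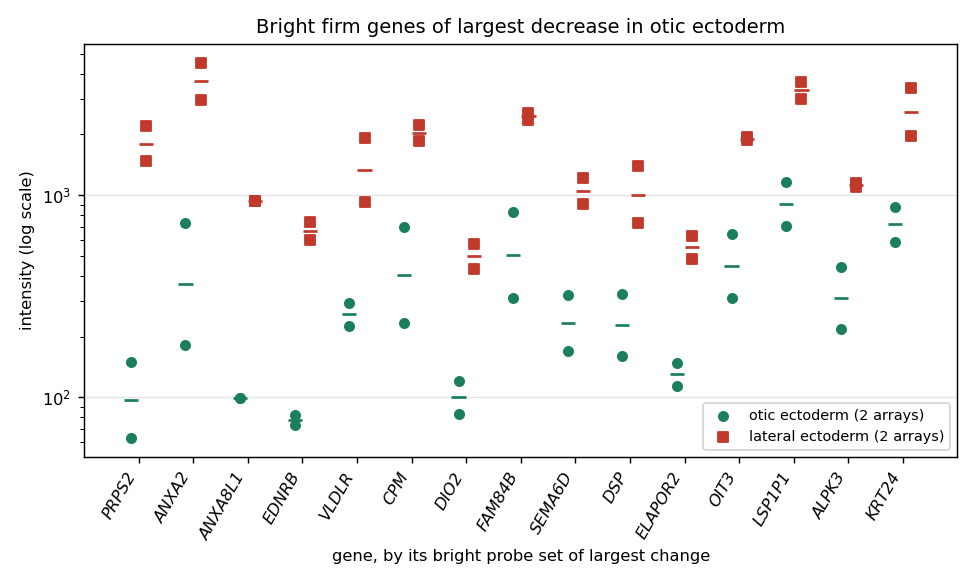
Intensities (log scale) of the 15 genes with the largest firm decrease in otic ectoderm among bright probe sets, with 2 points per tissue and the geometric mean as a bar, otic ectoderm left of lateral ectoderm. Lateral points lie above otic points, which the rule for a firm call requires. ANXA8L1 has the closest replicates (99.6 and 98.9 in otic ectoderm, 938.5 and 940.7 in lateral ectoderm).

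The order of replicates was counted among these genes, which were selected on the same arrays, so the counts are not independent of the firm rule. In the 30 firmly lower bright probe sets, otic replicate 2 lay above otic replicate 1, that is nearer to lateral ectoderm, in 26, after each array was centred on its median, against 69.2% of all bright probe sets. In the 83 firmly higher ones, lateral replicate 2 lay above lateral replicate 1, nearer to otic ectoderm, in 65, against 55.1% of all bright probe sets. The other orders were less marked. Lateral replicate 2 was above lateral replicate 1, further from otic ectoderm, in 18 of the 30. Otic replicate 2 was above otic replicate 1, further from lateral ectoderm, in 50 of the 83.

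Marker genes of several tissues were read, chosen with earlier results of these data known. The keratin KRT19 of the marker list is an older name of KRT24 in RefSeq, whose values are given above and whose brightest probe set was not called. The markers KRT8 and SOX21 were not analysed here. The 4 otic markers were firmly higher in otic ectoderm: GBX2, as above, PAX2 with 137 and 355 in otic pools against 17.5 and 17.4 in lateral pools (3.66, SE 0.68), SOX8 with 487 and 586 against 3.4 and 49.3 (5.37, SE 1.14), and SOHO1 with 107 and 340 against 3.3 and 18.8 (4.60, SE 0.91). The study had named all 4 as otic-enriched on these same arrays, so their direction is not an independent check of the labels. Leaving out lateral replicate 1 put SOX8 at 3.44, and leaving out lateral replicate 2 at 7.30. Genes shared by ectodermal epithelia were bright in both tissues and were not called. EPCAM, an epithelial adhesion molecule, had 11199 and 11290.3 in otic pools, against 9207 and 10562 in lateral pools (0.19, SE 0.33), and CDH1, E-cadherin, had 1119 and 2479 in otic pools, against 1809 and 1701 in lateral pools (−0.07, SE 0.48).

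Epidermal factors were read next. GRHL3, a transcription factor of epidermal differentiation, had 26.8 and 27.8 in otic pools, against 81.8 and 265 in lateral pools (−2.43, SE 0.66). Its other probe set, with 30.3 and 15.7 in otic pools against 29.9 and 20.7 in lateral pools, was not called (−0.19, SE 0.68). TP63, the factor that maintains layered epithelia, had 122 and 181 in otic pools, against 135 and 197 in lateral pools in its brighter probe set (−0.14, SE 0.39), and was called lower only in a dim one with 4.0 and 2.1 against 9.8 and 24.2 (−2.41).

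Over the whole list of 35 measured genes of surface ectoderm and epidermis, each by its brightest probe set, 8 were lower and 1 was higher in otic ectoderm, where 2.57% of all genes were lower and 5.11% higher. The median log2 fold change was −0.18, against 0.19 over all genes, and the summed intensity was 27709 and 39173 in otic pools against 40013 and 48756 in lateral pools. Besides DSP and GRHL3, the keratin gene KRT13 was firmly lower, with 53.7 and 73.9 in otic pools against 326 and 452 in lateral pools (−2.61, SE 0.55). TFAP2B, an AP-2 factor, was the one higher member, with 69.8 and 90.9 against 32.8 and 35.1 (1.23, SE 0.36), and lost the call without otic replicate 2 (1.04) or with 32 units added (0.76). The count of 8 was 4 without otic replicate 1 and 4 without lateral replicate 2. Tight and gap junction genes stood at 1 higher and 1 lower of 27 (median 0.032), the lower one being the connexin gene GJA5 (−2.73), whose intensities were 15.7 or less in every pool, and which lost the call with 32 units added (−0.43). Cadherins stood at 1 higher and 2 lower of 27 (median −0.070), with 3 and 0 without lateral replicate 1, 0 and 0 without lateral replicate 2, and 0 and 3 after quantile normalization.

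**Figure D5:**
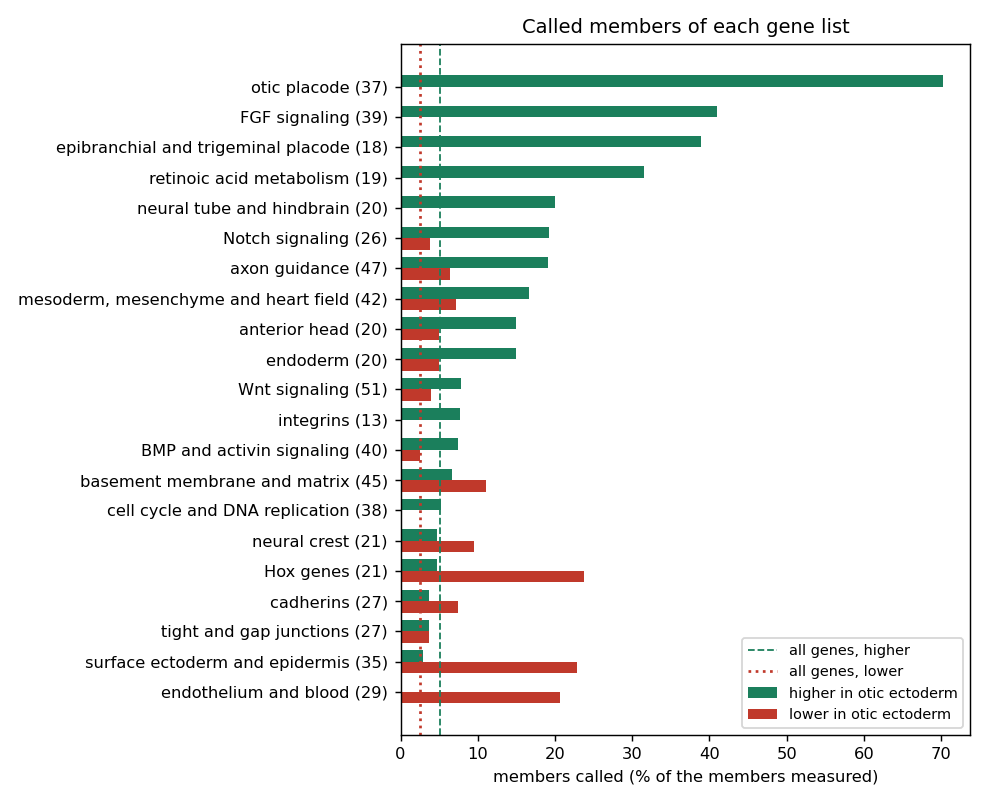
Percentage of the measured members of each gene list (number measured in brackets) that were called higher or lower in otic ectoderm, each gene by its brightest probe set, with the shares over all genes as lines (5.11% higher and 2.57% lower). Otic placode and FGF signaling lists have the most members higher, and Hox, epidermal and endothelial lists the most lower. The otic placode and FGF lists hold genes that the study had named on these same arrays.

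Many members of the placodal lists were higher, where 5.11% of all genes were higher and 2.57% lower. Of 37 genes of the otic placode 26 were higher, 21 of them firmly, and 0 lower, with a median of 2.33. Some members entered the list because the study had named them on these same arrays, so its direction is not independent evidence. JAG1, a Notch ligand of the prosensory ear, had 124 and 239.7 in otic pools, against 1.4 and 18.6 in lateral pools (5.08, SE 1.14), with 3.21 without lateral replicate 1 and 6.94 without lateral replicate 2. SOX2, an HMG-box factor of progenitors, had 346 and 721 in otic pools, against 6.9 and 105 in lateral pools (4.21, SE 1.24), and was not called without otic replicate 2 (3.68). Of 18 genes of epibranchial and trigeminal placodes 7 were higher and 0 lower, with a median of 1.11. EBF3, a factor of differentiating neurons, had 127 and 179 in otic pools, against 22.2 and 18.4 in lateral pools (2.90, SE 0.35, adjusted p = 0.20), and all 3 of its probe sets were higher. HES6, a helix-loop-helix factor that promotes neuronal differentiation, had 128 and 64.3 in otic pools, against 3.7 and 12.1 in lateral pools (3.76, SE 0.72). Where lateral values are this close to the floor the size of a difference is uncertain, and with 32 units added it was 1.65 for HES6, 2.32 for JAG1, 2.87 for SOX2, 3.40 for SOX8 and 2.42 for SOHO1.

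In the FGF pathway 16 of 39 genes were higher and 0 lower, with a median of 0.76, where 5.11% of all genes were higher and 2.57% lower. The study had named FGF8, FGF19, SPRY1, SPRY2, IL17RD and further members as otic-enriched on these same arrays. The direction of this list is therefore not independent evidence. Of the ligands, FGF8 had 39.1 and 118 in otic pools, against 2.6 and 1.7 in lateral pools (5.01, SE 0.61), and FGF19 had 349.7 and 359.9 against 16.2 and 42.2 (3.76, SE 0.52). The size of the FGF8 difference is uncertain because its lateral values are near the floor, and it was 1.60 with 32 units added. By in situ hybridization the study saw little FGF8 in the placode itself and strong signal in the ectoderm next to it. A gene higher in otic pools thus need not be expressed in the placode. Of the inhibitors, SPRY1 had 197 and 324 in otic pools, against 7.8 and 24.6 in lateral pools (4.19, SE 0.62, and 2.59 with the units added), beside SPRY2 and IL17RD. In quantile-normalized values 14 genes of the list were higher and 2 lower, and without otic replicate 2 there were 11 and 3.

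Other signaling lists had fewer called members, beside shares over all genes of 5.11% higher and 2.57% lower. Of 26 Notch genes 5 were higher and 1 was lower, with a median of 0.12, under the 0.19 of all genes, so that JAG1 and HES6 stood beside members that were mostly not called. The ligand gene DLL1 had 155 and 201 in otic pools, against 16.6 and 80.1 in lateral pools (2.28, SE 0.82), and was not called without lateral replicate 1 (1.14), otic replicate 1 (2.47) or otic replicate 2 (2.09). Of 19 genes of retinoic acid metabolism 6 were higher and 0 lower, with a median of 0.38. CYP26C1, an enzyme that breaks down retinoic acid, had 422 and 805 in otic pools, against 49.9 and 93.0 in lateral pools (3.10, SE 0.52, adjusted p = 0.21), and all 3 of its probe sets were higher. As for FGF8, in situ hybridization of the study placed its signal mostly in ectoderm next to the placode. CYP26A1, a related enzyme, had 621 and 553 against 60.3 and 253 (2.24, SE 0.68), and was not called without otic replicate 1 (2.16).

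Of 51 Wnt genes 4 were higher and 2 lower, with a median of 0.19, and there were 4 and 5 without otic replicate 2, and 7 and 1 without lateral replicate 2. In the main fit the Wnt shares, 7.84% higher and 3.92% lower, were near those over all genes, 5.11% and 2.57%. The receptor gene FZD8 had 281 and 443 in otic pools, against 61.5 and 91.6 in lateral pools (2.23, SE 0.45), and the secreted antagonist SFRP1 had 1194 and 1098 against 274 and 519.9 (1.60, SE 0.42). On the lateral side, the ligand gene WNT11 had 75.8 and 168 in otic pools, against 317 and 622 in lateral pools (−1.98, SE 0.53), and was not called without lateral replicate 2 (−1.49). Among 40 genes of BMP and activin signaling 3 were higher and 1 lower, with a median of −0.083. Those BMP shares, 7.5% and 2.5%, were also near the shares over all genes. There were 3 and 3 after quantile normalization or median centring, 3 and 4 with the intensity-dependent prior, 2 and 4 with 32 units added, and 2 and 6 without otic replicate 2. The 3 higher genes of the main fit were GATA3, described above as an inner ear factor, FST and BMPR1B, whose lost calls are given further on. FST, follistatin, which binds activins, had 376 and 208 in otic pools, against 26.7 and 50.0 in lateral pools (2.94, SE 0.53). MSX2, a homeobox target of BMP signaling, had 201 and 874 in otic pools, against 1571 and 1306 in lateral pools (−1.77, SE 0.69). The otic pools of MSX2 differed more than 4-fold, and it was not called without otic replicate 1 (−0.71) or either lateral pool (−1.64 without replicate 1 and −1.90 without replicate 2).

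Hox genes, which mark position along the body axis, had most of their called members on the lateral side. Of 21 Hox genes and cofactors 5 were lower and 1 was higher in otic ectoderm, with a median of −0.41. Over all genes 2.57% were lower and 5.11% higher. HOXA6 was the one firm member, with 77.9 and 121 in otic pools, against 302 and 356 in lateral pools (−1.76, SE 0.37, adjusted p = 0.29), and its dim probe set gave −4.01. HOXB3 had 43.7 and 212 in otic pools, against 419 and 329 in lateral pools (−1.95, SE 0.78), with −0.81 and no call without otic replicate 1, and no call without lateral replicate 1 (−1.77) or 2 (−2.12). The count of 5 was 1 without otic replicate 1, 2 without lateral replicate 1, 1 without lateral replicate 2 and 6 without otic replicate 2. In the anterior head list (median 0.49) 3 of 20 genes were higher, OTX2 among them, and 1 was lower, SIX3 (−1.36), with 41.3 or less in every pool and no call without otic replicate 1 (−1.09) or lateral replicate 2 (−0.88).

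Genes of guidance and matrix had members on both sides, where 5.11% of all genes were higher and 2.57% lower. Of 47 axon guidance genes 9 were higher and 3 lower, with a median of 0.57, and there were 6 of each without otic replicate 2, and 4 and 3 with 32 units added. NTN3, a netrin, had 213 and 43.9 in otic pools, against 1.6 and 2.0 in lateral pools (5.76, SE 1.08), an increase of uncertain size that was 2.01 with 32 units added. UNC5D, a netrin receptor, had 54.6 and 24.5 against 3.0 and 5.4 (3.18, SE 0.54), and lost the call with the added units (0.95). NRP2, a co-receptor of semaphorins, was measured at 289 and 556 in otic pools, against 742 and 946 in lateral pools (−1.06, SE 0.42), and was not called without otic replicate 1 (−0.59) or either lateral pool (−1.24 without replicate 1 and −0.89 without replicate 2). In the matrix list (median −0.15) 3 of 45 genes were higher, VCAN among them, and 5 lower. COL3A1, a collagen of mesenchyme, had 132 and 692 in otic pools, against 3056 and 4681 in lateral pools (−3.65, SE 1.12), and was not called without otic replicate 1 (−2.45) or lateral replicate 2 (−3.34). LAMA2, a laminin chain, had 31.1 and 83.8 against 162 and 305 (−2.12, SE 0.82), and lost the call in the same way without otic replicate 1 (−1.41) or either lateral pool (−2.58 without replicate 1 and −1.66 without replicate 2). The lower count of the matrix list was 8 after quantile normalization, 12 without otic replicate 2 and 1 without lateral replicate 2. Among 13 integrins (median −0.11, with 4 lower without otic replicate 2) ITGB3 alone was called, with 1004 and 1682 in otic pools against 393 and 487 in lateral pools (1.57, SE 0.39).

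Of 38 cell cycle and replication genes 2 were higher and 0 lower, with 4 and 1 without otic replicate 1, 4 and 0 without lateral replicate 2, and 1 and 0 without lateral replicate 1. The shares in the main fit, 5.26% higher and 0% lower, stood beside 5.11% and 2.57% over all genes. The 2 higher genes were CCND1 and the cyclin gene CCNE2, which had 278 and 535 in otic pools, against 73.0 and 200.2 in lateral pools (1.67, SE 0.66). CCNE2 was not called without otic replicate 2 (1.20) or lateral replicate 1 (0.94). The median of the list was 0.48, and 30 of its 38 members lay above the median of all genes (0.19), most of them without a call.

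Markers of other tissues were read in both kinds of pool, without a detection limit, so a dim value does not show that a gene is expressed. Of 29 genes of endothelium and blood 0 were higher and 6 were lower in otic ectoderm, where 5.11% of all genes were higher and 2.57% lower. The list had a median of −0.66 and summed intensities of 5078 and 6877 in otic pools, against 9018 and 12783 in lateral pools. TIE1, an endothelial receptor, had 5.0 and 23.0 in otic pools, against 66.7 and 89.6 in lateral pools (−2.85, SE 0.75), and HBA1, an alpha globin, had 18.3 and 20.8 against 54.3 and 94.0 (−1.87, SE 0.42). CDH5, the cadherin of endothelial junctions, had 143 and 607 in otic pools, against 1114 and 1273 in lateral pools (−2.02, SE 0.72). It was not called without otic replicate 1 (−0.97) or either lateral pool (−2.11 without replicate 1 and −1.92 without replicate 2). KDR, a defining receptor of early endothelium, did not follow, with 210.5 and 399 in otic pools against 207 and 356 in lateral pools (0.09, SE 0.68), nor did the blood and vessel factor TAL1, with 108 and 191.5 against 234 and 188 (−0.55, SE 0.45). The count of 6 was 3 without otic replicate 1, 4 without lateral replicate 1, 2 without lateral replicate 2 and 9 without otic replicate 2. The part of adhering vessel or blood cells in the lower genes of otic ectoderm was not tested.

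Of 42 genes of mesoderm, mesenchyme and heart field 7 were higher and 3 lower, where 5.11% of all genes were higher and 2.57% lower. The list had a median of 0.32 and summed intensities of 18978 and 36937 in otic pools against 25505 and 27073 in lateral pools. The higher ones included FOXC2 and ISL1, and NKX2-5, a heart factor, with 214 and 460 in otic pools against 93.1 and 109 in lateral pools (1.64, SE 0.55), which was not called without otic replicate 2 (1.09) or either lateral pool (1.53 without replicate 1 and 1.75 without replicate 2). Without otic replicate 1 the list had 13 higher genes, and without otic replicate 2 or lateral replicate 1 it had 3. After quantile normalization it had 6 higher and 5 lower. The mesenchyme markers TWIST1 (278 and 334 in otic pools, against 160 and 170 in lateral pools) and TCF21 (217 and 244, against 44.4 and 141; 1.54, SE 1.01) were not called, though TCF21 passed both limits with 32 units added (1.19). TBX5, a factor of heart and forelimb, with 11.4 and 72.2 in otic pools against 25.6 and 24.3 in lateral pools, was not called either, but passed both limits without otic replicate 1 (1.53). The part of mesoderm attached to otic pieces in FOXC2 and ISL1 was not tested.

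Of 20 endoderm genes 3 were higher and 1 lower, where 5.11% of all genes were higher and 2.57% lower. The list had a median of −0.10 and summed intensities of 3313 and 7441 in otic pools against 12852 and 7201 in lateral pools. CER1, a secreted antagonist of nodal, had 129 and 136 in otic pools, against 22.9 and 4.1 in lateral pools (3.77, SE 0.83), with 5.01 without lateral replicate 1, 2.53 without lateral replicate 2 and 1.89 with 32 units added. APOB, a lipoprotein of yolk sac and liver, had 18.8 and 101 in otic pools, against 724 and 254 in lateral pools (−3.30, SE 0.97), and was not called without otic replicate 1 (−2.09) or lateral replicate 1 (−2.55). TTR, transthyretin, followed the same order of pools, with 453 and 1774 in otic pools against 4392 and 2221 in lateral pools (−1.80, SE 1.22), but was not called. The endoderm factors FOXA2 (178 and 161 in otic pools, against 54.3 and 120.2 in lateral pools) and SOX17 (471 and 611, against 473 and 618) were not called.

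Neural and crest genes were read last, beside shares over all genes of 5.11% higher and 2.57% lower. Of 20 neural tube and hindbrain genes 4 were higher and 0 lower, with a median of 0.54, and this list shares SOX2 with the otic list. Without otic replicate 1 or lateral replicate 2 it had 6 higher and 1 lower. MSI1, an RNA-binding protein of neural progenitors, had 2073 and 1387 in otic pools, against 280.2 and 698 in lateral pools (1.94, SE 0.52). It was higher in 3 of 6 probe sets, and the others gave −0.20, −0.020 and 0.052 without a call. DBX2, a homeobox gene of the neural tube, had 94.5 and 92.1 against 27.9 and 33.7 (1.61, SE 0.36), and lost the call with 32 units added. The neural tube markers SOX1 and PAX6 were dim, at 44.3 or less in every pool, and were not called. Of 21 neural crest genes 1 was higher and 2 were lower, with a median of −0.070, and without otic replicate 2 there were 2 and 5. SOX10, which marks crest as well as the otic placode, had 50.5 and 117 in otic pools, against 11.1 and 22.4 in lateral pools (2.29, SE 0.58), and was firmly higher in 1 of 2 probe sets. FOXD3 (118 and 154 in otic pools, against 88.0 and 163 in lateral pools) and SNAI2 (189 and 635, against 290 and 768) were not called, so that of the crest genes on the lateral side EDNRB alone was firm.

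Further list members taken by the naming rule were mostly dim. HAND1, a heart and mesoderm factor (−2.23), RBP4, the carrier of retinol (2.66), and KREMEN1, a receptor that restrains Wnt signaling (−1.68), were firm, and lost the call when 32 units were added. The other members lost the call without at least 1 pool of otic or lateral ectoderm. Without otic replicate 2 this held for MEF2C (1.86, 1.19 without it, with a dim probe set called the other way at −1.94), NKX2-3 (2.28, 1.69), BMPR1B (1.29, 1.04), PBX3 (1.23, 1.01), HESX1 (1.38, 1.07), ILDR2 (1.17, 0.94), CDH20 (−1.33, −0.71), EPHA4 (3.93, 3.33), FOXF1 (−1.78, −1.44), LAMB3 (−1.84, −0.82) and DLL4 (−2.17, −2.18). Without lateral replicate 2 it held also for MEF2C (1.55), NKX2-3 (1.43), BMPR1B (1.13), HESX1 (1.12), ILDR2 (0.97), CDH20 (−1.43), EPHA4 (4.48), FOXF1 (−2.02) and LAMB3 (−1.63), and for CDH4 (1.17, 0.90), SEMA3C (−1.33, −1.11), COL7A1 (2.86, 1.84) and COL10A1 (1.57, 1.23). Without lateral replicate 1 it held for PBX3 (0.77), CDH20 (−1.23), EPHA4 (3.38), FOXF1 (−1.54), LAMB3 (−2.04) and DLL4 (−1.65), for SP8 (2.48, 1.53) and for HOXB6 (−2.64, −2.44). Without otic replicate 1 it held for NKX2-3 (2.87), EPHA4 (4.54), FOXF1 (−2.12), DLL4 (−2.15), COL7A1 (1.82), SP8 (2.07) and HOXB6 (−1.82), and HOXB6 was also not called without lateral replicate 2 (−2.84).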

How the data were processed

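Affymetrix GeneChip Chicken Genome arrays, 2 per group, measured RNA of otic ectoderm, lateral ectoderm and cultured trigeminal ectoderm after amplification in 2 cycles and biotin labeling. The deposited values are linear intensities, 1 per probe set and array, as computed by the authors. How probes were summarised, corrected for background and scaled was given in no source used here. The package limma is named in the submitters' processing notes without a version. Arrays give no read depth, and their number limits the precision.

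Of 38439 probe sets outside the controls, 27168 had one gene symbol in the platform annotation, 177 several and 11094 none, and 104 of these took their symbol from the study's tables. Intensities under 1 (2.30% to 2.90% of an array) were set to 1 and log2 was taken, with no scaling, offset or filter. Otic minus lateral ectoderm was tested two-sided in limma 3.58.1 (functions lmFit and eBayes, R 4.3.3), with a mean per group over 8 arrays (4 residual degrees of freedom). The scripts were tested on simulated intensities with known changes.

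Genes were named by a rule: the 15 of largest firm change per direction among bright probe sets, up to 20 per direction with a bright probe set past an adjusted p of 0.05 under the eBayes trend, up to 3 called members per direction of each list, and the cell type markers. Lists of genes (21) were described by counts on the brightest probe set of each gene, with no set test. The members and lists were chosen with earlier results of these data known. Alternatives were quantile normalization, median centring, a fit of 4 arrays, the eBayes trend, an offset of 32, leaving out the dimmest 40% of probe sets, a replicate block, leaving out each array, and stricter limits. Plots were made in Python 3.11.15 with matplotlib 3.10.9.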

Additional observations from a re-analysis of the deposited data

How the results depend on the processing

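Counts over all probe sets stayed within 1.5 times of those reported under most settings, and the exceptions follow. Leaving out the dimmest 40% of probe sets gave 1190 higher and 509 lower, an offset of 32 before the log2 gave 516 and 322, a fold above 4 gave 830 and 518, and an unadjusted p under 0.01 gave 620 and 316. Quantile normalization with the eBayes trend, chosen after seeing the data, gave 1275 higher. Leaving out single arrays gave 1702 to 2836 higher and 949 to 1915 lower, the last without otic replicate 2. Of bright probe sets 156 higher and 189 lower were left after quantile normalization, 144 and 182 after median centring, 75 and 44 among the brightest 10%, 37 and 36 at a fold above 4, 81 and 33 at an unadjusted p under 0.01, and 117 were higher in the fit of 4 arrays. Leaving out single arrays gave 117 to 470 higher and 49 to 276 lower. The 871 firm calls became 368 without the dimmest 40% and 304 with the offset. In the 2 dimmest intensity classes 158 and 155 probe sets were firmly higher and 98 and 92 firmly lower. Leaving out the dimmest 40% removed these from the fit. The cause of the other moves was not tested beyond the fewer probe sets or smaller fold changes that such settings make. With the replicate number as a block 2050 probe sets were higher and 1060 lower, and 243 and 109 of the bright ones. Differences between replicates 1 and 2 of the 2 tissues correlated at −0.023 over all probe sets and −0.18 over bright ones. The labels do not say whether pools of the same number were collected together, and these correlations cannot settle it. The crossed pairing, added after seeing the data, gave 1937 and 1079, and 210 and 105 of the bright ones. Markers that were not called changed sign under some settings. EPCAM was −0.00011 after median centring, FOXD3 −0.013 and −0.024, KDR −0.10 and −0.095 after quantile normalization and median centring, and TBX5 −0.011 after quantile normalization. Without single arrays TP63 ranged over −0.42 to 0.15, CDH1 −0.65 to 0.50, SOX1 −0.47 to 0.35, PAX6 −0.40 to 1.12, FOXD3 −0.28 to 0.61, SNAI2 −1.32 to 0.43, KDR −0.37 to 0.56, TBX5 −1.13 to 1.53 and SOX17 −0.21 to 0.18. Of the 121 probe sets named, 4 lost the call after quantile normalization, 4 after median centring, 3 with the eBayes trend, 13 in the fit of 4 arrays, 21 with the offset and 6 with the replicate block. With 2 pools per tissue the precision is limited, most of all for dim probe sets, whose replicates differed by a median of 1.04 in otic and 0.98 in lateral ectoderm.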
